A study of Mus musculus with 27 samples.

Results

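The last interval of a hydrogen peroxide time course was examined in E14Tg2a cells, a mouse embryonic stem cell line, by setting treated cells collected at 24 h directly against treated cells collected at 10 h. The labels alone chose the libraries: 3 labelled treated 24 h and 3 labelled treated 10 h, together 6 of the 27 libraries of the series. Cells of both groups are labelled wild type and grew on gelatin in medium that holds serum, the cytokine LIF and a pair of kinase inhibitors called 2i. Both groups met 500 µM hydrogen peroxide for 30 min, the unit given in the treatment protocol (the series text writes mM), and then received spent medium taken from untreated cells in place of the peroxide medium. The time since exposure is the labelled difference between them, and the cells collected later had also been longer in culture and in the replaced medium. These cannot be told apart within the 6 libraries. Untreated cells at 24 h and untreated cells at 0 h, 3 libraries each of the same line and medium without peroxide, are set beside them where a result calls for it. Untreated cells of the 10 h time and cells given spent medium alone were not analysed here. All groups come from 1 cell line, and the 3 libraries of a group are biological replicates, described as independent time courses.

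Hydrogen peroxide oxidises cysteine residues of proteins. In the textbook account, oxidation of KEAP1 releases the transcription factor NRF2, which switches on genes of glutathione synthesis, thioredoxin and peroxiredoxin repair and heme breakdown, while DNA damage stabilises p53. Mouse embryonic stem cells keep their identity through a network of transcription factors that includes OCT4 (Pou5f1), SOX2 and NANOG, and they grow quickly, with a high demand for protein synthesis and folding. The 2i inhibitors block MEK and GSK3, so signalling through ERK is held down and the Wnt effector beta-catenin is held stable.

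Poly(A) RNA was sequenced, and expression is given as FPKM, fragments scaled to gene length and to the number of mapped fragments in the library. The 6 libraries were alike in depth, at 1.00 to 1.03 times the depth of the first untreated 0 h library as read from the smallest values, and 12301 to 12607 genes reached 1 FPKM in each. Treated 10 h replicate 3 stood apart: genes rich in G and C were higher in it than in the other treated 10 h libraries, by 0.22 log2 per 10 points of GC content, and its cytosolic ribosomal protein genes were higher by a median of 0.51 log2. The same GC slope lay between -0.025 and 0.019 within the treated 24 h libraries. The stem cell label held: Pou5f1 stood at 594 to 612 FPKM at 24 h and 402 to 517 FPKM at 10 h, and Nanog at 355 to 374 FPKM and 227 to 243 FPKM. Of other cell types, the summed primitive endoderm markers were 124 to 129 FPKM at 24 h against 87.4 to 94.5 FPKM at 10 h, with 4 of 6 tested members changed, and the summed primitive streak markers were 12.9 to 15.1 FPKM against 22.5 to 28.5 FPKM. No member of the hepatocyte list (3 tested) or of the fibroblast list (2 tested) passed the test, and of 5 astrocyte markers only Aldh1l1 did, at -0.63. The hepatocyte genes Alb, Apoa1 and Ttr, at most 0.39 FPKM in the 6 treated libraries, were at 15.9 to 24.9, 3.95 to 4.78 and 3.68 to 5.21 FPKM in the untreated 24 h libraries, and their part in values set against those libraries was not tested. In bulk RNA, fewer cells of a type and less RNA per cell cannot be told apart.

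Among the 12587 genes that reached 1 FPKM in 3 or more of the 6 libraries, 2402 (19.1%) differed between treated 24 h and treated 10 h cells by limma at an adjusted p below 0.05. The change was taken as the difference of log2(FPKM + 1) between the group means after scaling, a scale that understates the change of genes with low levels. Of these genes, 1273 (10.1% of all tested) were higher at 24 h and 1129 (8.97%) were lower. Most changes were small: the median size among called genes was 0.46, and 91 genes were called with a change of at least 1, of which 41 were higher and 50 lower. The median standard error (SE) of a change was 0.099, and all tested genes had a median change of 0.0012. How many genes passed depended on single libraries. The count was 5061 without treated 10 h replicate 3 and 1541 without treated 10 h replicate 1, and it was 860, 785 and 893 without treated 24 h replicates 1, 2 and 3. Some calls named below were lost when 1 library was left out. Each is given as fragile, with the libraries whose removal ended it and, except for Srsf5, the highest adjusted p reached. Of the 2402 genes, 2397 were still called in the same direction without treated 10 h replicate 3, and none changed sign when any 1 library was left out.

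**Figure D1:**
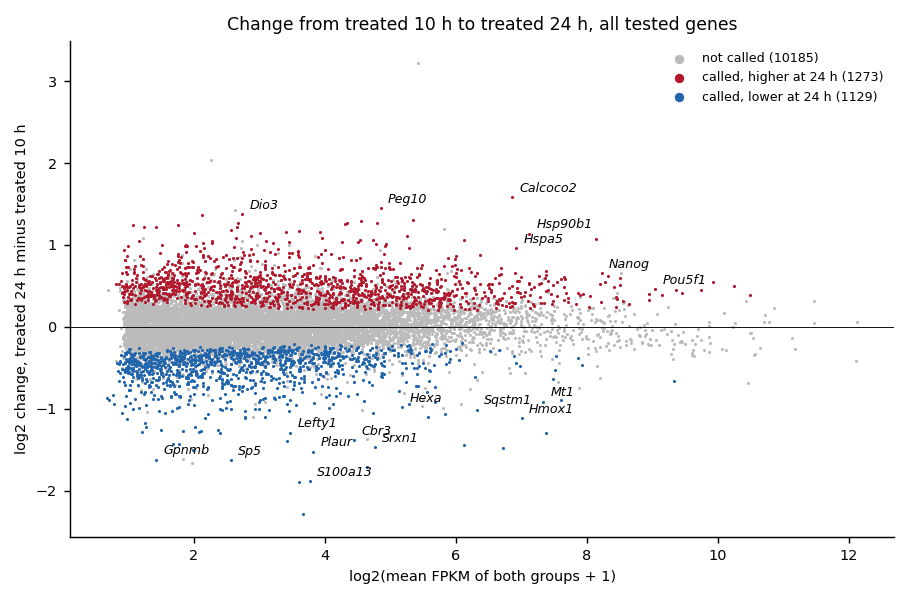
Change of each of the 12587 tested genes between treated 24 h and treated 10 h cells (vertical axis, difference of log2(FPKM + 1)) against its mean level in the 6 libraries (horizontal axis, log scale). Called genes are coloured by direction, 1273 higher and 1129 lower at 24 h, and the labelled genes at the edges include Calcoco2 above and S100a13, Sp5, Plaur and Srxn1 below.

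Among called genes, with gene models and short RNAs left out, the deepest fall was that of S100a13, a calcium-binding protein of the S100 family (chr3:90514435-90524581, GRCm38, as are all gene positions here). It stood at 4.21, 5.40 and 4.53 FPKM in treated 24 h cells, against 17.0, 19.6 and 25.1 FPKM in treated 10 h cells. All treated 24 h libraries lay below all treated 10 h libraries, and the change was -1.89 (SE 0.17, adjusted p = 0.0016). Groups did not overlap in 5207 (41.4%) of the 12587 tested genes, among them all 2402 called genes. Plaur, the receptor that holds urokinase at the cell surface, had 6.98, 6.21 and 5.49 FPKM at 24 h against 19.3, 18.3 and 22.6 FPKM at 10 h, a change of -1.53 (SE 0.12, adjusted p = 0.0013). It remained above the 3.15 to 3.65 FPKM of untreated 24 h cells in every treated 24 h library. Further deep falls were those of Phlda1, a pleckstrin-homology-like protein induced by growth factors (-1.40), Bhlhe40, a transcriptional repressor of the circadian clock (-1.30), Ptprn, a transmembrane phosphatase-like protein of secretory granules (-1.28), Patl2, an RNA-binding protein best known from oocytes (-1.25), Fam83h (-1.11) and Syngr1, a synaptic vesicle protein (-1.11).

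Among called genes, the largest rise was that of Calcoco2, an autophagy receptor also called NDP52 in human cells (chr11:96099326-96111964). It had 165, 173 and 181 FPKM in treated 24 h cells, against 58.8, 56.2 and 58.0 FPKM in treated 10 h cells. The groups were far apart, the change was 1.59 (SE 0.065, adjusted p = 0.00035), and the treated 24 h level was near the 138 to 163 FPKM of untreated 24 h cells. Peg10, a paternally expressed imprinted gene derived from a retrotransposon (chr6:4747306-4760517), had 42.3, 43.3 and 37.4 FPKM at 24 h against 16.4, 17.5 and 10.6 FPKM at 10 h. Its change was 1.45 (SE 0.16, adjusted p = 0.0028), and it left the untreated range: untreated 24 h cells had 8.64 to 11.7 FPKM. Other large rises were Dio3, the enzyme that inactivates thyroid hormone (1.37), Tomm6, a small subunit of the mitochondrial import pore (1.31), Wfdc2 (1.27), Khdc3, a component of the maternal complex of the early embryo (1.27), Crxos, a homeobox gene of the early embryo (1.22), the noncoding RNA Platr7 (1.17), Htra1, a secreted serine protease (1.16), and Apobec2 (1.15). Each of the genes in this and the preceding paragraph kept its call with any 1 library left out.

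**Figure D2:**
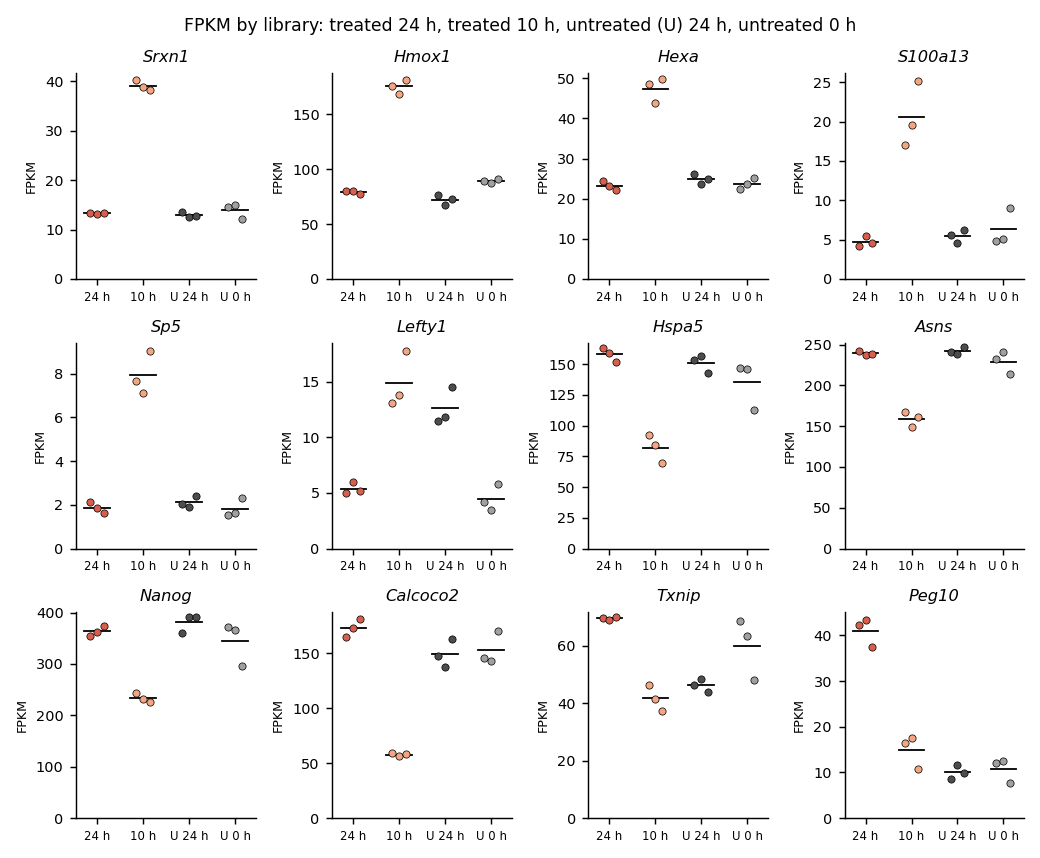
FPKM of 12 genes in each library (points) with group means (bars), for treated 24 h, treated 10 h, untreated 24 h and untreated 0 h cells, 3 libraries each. Srxn1, Hmox1, Hexa, S100a13, Sp5 and Lefty1 were lower in every treated 24 h library than in any treated 10 h library, and Hspa5, Asns, Nanog, Calcoco2, Txnip and Peg10 were higher. Groups did not overlap in any called gene.

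NRF2 targets were among the clearest falls. Of 30 tested NRF2 regulators and targets, 12 fell and 1 rose, with a median change of -0.25. Sulfiredoxin, encoded by Srxn1 (chr2:152105516-152111376), restores peroxiredoxins that peroxide has over-oxidised. Srxn1 had 13.3, 13.2 and 13.4 FPKM in treated 24 h cells, against 40.2, 38.9 and 38.1 FPKM in treated 10 h cells. The treated 24 h libraries lay within the 12.6 to 13.5 FPKM of untreated 24 h cells, and the change was -1.47 (SE 0.052, adjusted p = 0.00033). Hmox1, which encodes heme oxygenase, the enzyme that opens the heme ring (chr8:75093621-75100589), had 80.45, 79.97 and 77.71 FPKM at 24 h against 176, 168 and 181 FPKM at 10 h, a change of -1.11 (SE 0.071, adjusted p = 0.00098). All of its treated 24 h values were above the 67.0 to 76.6 FPKM of untreated 24 h cells and below those of untreated 0 h cells, 87.6 to 90.9 FPKM. Cbr3, a carbonyl reductase, averaged 11.0 ± 0.36 FPKM at 24 h and 30.7 ± 2.60 FPKM at 10 h (SD, n = 3 each), a change of -1.39. Sqstm1, the autophagy receptor p62 that also binds KEAP1, averaged 51.5 ± 1.22 and 106 ± 6.84 FPKM, a change of -1.01.

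Gclm and Gclc encode the modifier and catalytic subunits of the enzyme that starts glutathione synthesis. Gclm had 13.99, 13.64 and 13.05 FPKM at 24 h against 27.5, 24.8 and 24.2 FPKM at 10 h, a change of -0.84 (SE 0.058, adjusted p = 0.0011). Gclc averaged 11.97 and 18.5 FPKM, a change of -0.55. Keap1 itself, the NRF2 inhibitor, fell by 0.47. The heme transporter Slc48a1 (-0.85), the small Maf partner Mafg (-0.75) and glutathione reductase Gsr (-0.46) fell too. Thioredoxin reductase Txnrd1 (-0.28) and the quinone reductase Nqo1 fell least, and Nqo1 still averaged 56.5 FPKM at 24 h against 69.5 FPKM at 10 h and 34.1 to 38.8 FPKM in untreated 24 h cells. Fragile calls were those of Gclc and Txnrd1 (lost without any 1 library except treated 10 h replicate 3, adjusted p up to 0.11 and 0.13), Nqo1 (without treated 10 h replicate 1 or any treated 24 h library, up to 0.15), Keap1 (without treated 24 h replicate 3, 0.051) and Gsr (without treated 24 h replicate 1, 0.051). With 1 library left out, 8 to 16 of the 30 fell, 16 without treated 10 h replicate 3 and 8 without treated 24 h replicate 1 or 3. The core of the antioxidant response element, TGACNNNGC, the sequence bound by NRF2 and small Maf proteins, was searched on both strands of the 250 bases before the RefSeq start. It was found in 2 of the 8 listed promoters of the 12 fallen genes, those of Gclm and Mafg, against 10.1% of 27025 listed promoters and 11.98% of 8855 promoters of tested genes. The share was no higher than in most other lists searched. The core was also in 4 of 15 promoters of lysosomal genes that fell. Among genes that rose, it was in 2 of 8 promoters of ER chaperone genes, 2 of 8 of serine and proline synthesis genes and 2 of 12 of tRNA synthetase genes. The stretch of the Gclm promoter with the match, on GRCm38.p6 from RefSeq with the matched bases in capitals, is shown because Gclm is a rate-setting gene of glutathione supply. A match of this kind is a description, not a site or a cause.
Gclm (chr3:122245403-122245451, plus strand): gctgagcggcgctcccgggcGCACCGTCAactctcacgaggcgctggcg

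The enzymes that remove peroxide and superoxide gave calls in both directions. Of 25 tested members, 4 rose and 3 fell, with a median of 0.07, beside 10.1% higher and 8.97% lower over all tested genes. Catalase (Cat) averaged 29.8 ± 1.31 FPKM at 24 h and 37.8 ± 1.68 FPKM at 10 h, a change of -0.32. The abundant peroxiredoxin gene Prdx1 averaged 302 and 293 FPKM and did not pass (adjusted p = 0.68), and Gpx1 averaged 280 and 245 FPKM (adjusted p = 0.29). Both passed without treated 10 h replicate 3, in which they were higher than in the other treated 10 h libraries. The mitochondrial superoxide dismutase Sod2 rose by 0.29 and Prdx6 by 0.35. The count of risers was 0 to 12 with 1 library left out, 12 without treated 10 h replicate 3 and 0 without treated 24 h replicate 1 or 2. Over all tested genes it ran from 433 to 2707 in the same fits. Txnip, which binds and inhibits thioredoxin and limits glucose uptake (chr3:96557957-96561883), went the other way from the NRF2 targets. It had 69.9, 68.9 and 70.0 FPKM in treated 24 h cells, against 46.3, 41.5 and 37.3 FPKM in treated 10 h cells, a change of 0.75 (SE 0.074, adjusted p = 0.0018). All treated 24 h values were above the 44.0 to 48.5 FPKM of untreated 24 h cells. Its relative Arrdc4 averaged 13.6 ± 0.15 FPKM at 24 h and 6.24 ± 0.57 FPKM at 10 h, a change of 1.04, and these were the only calls among 5 tested arrestin-domain genes. The metal-binding metallothioneins Mt1 (109 against 212 FPKM, -0.91) and Mt2 (490 against 797 FPKM, -0.66) fell, 2 of 7 tested in their list. Of 22 tested heme and iron genes 1 rose and 2 fell, with a median of -0.07, where 10.1% of all tested genes rose and 8.97% fell. Steap3, an endosomal iron reductase, rose by 0.87, while Hmox1 and Slc39a14 fell. Ferritin heavy chain Fth1 averaged 175 and 207 FPKM and was not called (adjusted p = 0.21). The fragile calls here were those of Cat (lost without treated 24 h replicate 2 or 3, adjusted p up to 0.086), Mt1 (without treated 24 h replicate 2, 0.054), Sod2 (without any treated 24 h library, up to 0.084), Mt2 (these or treated 10 h replicate 2, up to 0.12), and Prdx6 and Slc39a14 (without any library except treated 10 h replicate 3, up to 0.12 and 0.13).

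Several immediate early genes and feedback inhibitors were lower at 24 h. AP-1 is a dimer of Jun and Fos family proteins that answers stress and growth factor signals. Of 10 tested AP-1 and Atf3 family members 5 fell and none rose, with a median of -0.39 and 4 or 5 falls with any 1 library left out. Jun had 2.84, 2.55 and 2.82 FPKM in treated 24 h cells, against 6.397, 5.795 and 5.438 FPKM in treated 10 h cells, a change of -0.86 (SE 0.073, adjusted p = 0.0016). Fosl1 had 0.069, 0.22 and 0.096 FPKM at 24 h against 1.02, 1.13 and 1.07 FPKM at 10 h, a change of -0.87. At 24 h it was as near 0 as in untreated cells. Maff and Jund fell as well, while Junb (16.4 and 18.5 FPKM), Fos (1.32 and 1.81 FPKM) and Atf3 (3.31 and 3.51 FPKM) were not called. Of 16 tested MAP kinase phosphatases and Sprouty genes, which turn ERK, JNK and p38 signalling down, 7 fell and none rose. Dusp1 had 5.87, 6.19 and 6.395 FPKM at 24 h against 14.5, 13.5 and 13.4 FPKM at 10 h, a change of -1.03 (SE 0.062, adjusted p = 0.00098). Dusp8 (-0.84), Dusp10 (-0.64), Dusp4 (-0.63) and Dusp5 (-0.42) fell with it, whereas Dusp6 averaged 7.43 and 9.08 FPKM (adjusted p = 0.15) and Spry2 31.1 and 30.9 FPKM. The falls numbered 5 to 11 with 1 library left out, 11 without treated 10 h replicate 3. Of 19 tested Egr and other immediate early genes, 5 fell and 2 rose. Plaur led the falls, followed by Id1 at -0.91, and Srf, the factor that drives many of these genes, rose by 0.59. When a library was left out, 2 to 9 fell, 9 without treated 10 h replicate 3 and 2 without treated 24 h replicate 2 or 3. Calls that proved fragile were those of Jund (lost without any treated 24 h library, adjusted p up to 0.12) and Dusp5 (these or treated 10 h replicate 1, up to 0.13).

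Part of the folding machinery of the endoplasmic reticulum (ER) rose. ER chaperones hold and fold secreted and membrane proteins, and the unfolded protein response raises them through ATF6 and XBP1. Of 21 tested members, 9 rose, 12 were not called and none fell, with a median of 0.26. Hsp90b1, the chaperone GRP94 (chr10:86690209-86705509), had 192, 194 and 182 FPKM in treated 24 h cells, against 96.5, 91.4 and 73.4 FPKM in treated 10 h cells. Its change was 1.14 (SE 0.090, adjusted p = 0.0015). Hspa5, the chaperone BiP (chr2:34771970-34777547), had 163, 159 and 152 FPKM at 24 h against 92.0, 84.5 and 69.8 FPKM at 10 h, a change of 0.96 (SE 0.087, adjusted p = 0.0018). For both genes the groups were well apart, and treated 10 h replicate 3 was the lowest library. The disulfide isomerases Pdia4 (0.88), Pdia6 (0.87) and Pdia3 (0.59), the lectin chaperone calreticulin Calr (0.55), the secreted survival factor Manf (0.56), Xbp1 (0.53) and the co-chaperone Dnajc3 (0.45) made up the rest of the 9. Across the fits with 1 library fewer, 6 to 14 rose, 14 without treated 10 h replicate 3 and 6 without treated 24 h replicate 1 or 3. Fragile calls were those of Calr (lost without any treated 24 h library, adjusted p up to 0.062), Xbp1 (without treated 24 h replicate 1 or 3, up to 0.051) and Dnajc3 (without treated 10 h replicate 1 or any treated 24 h library, up to 0.13).

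The ER stress element, CCAAT followed by 9 bases of any kind and CCACG, is bound by NF-Y and ATF6. Both strands of the 250 bases before the RefSeq start were searched. It was present in 5 of the 8 listed promoters of the 9 ER genes that rose, those of Hspa5, Hsp90b1, Calr, Pdia6 and Dnajc3, against 33 of 27025 listed promoters (0.122%) and 18 of 8855 promoters of tested genes (0.203%). ER genes that were not called were not searched as a group. A match is a description, not a site or a cause. The matched stretches with their flanks are shown because this element had the largest share in any list searched. They are from RefSeq, on GRCm38.p6, 5′ to 3′ on the gene's strand. Capitals mark the element or its reverse complement with the bases between its parts, and Hsp90b1 holds a pair of them, 1 on each strand.
Hspa5 (chr2:34772005-34772063, plus strand): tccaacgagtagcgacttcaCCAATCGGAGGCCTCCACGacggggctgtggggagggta
Hsp90b1 (chr10:86705513-86705676, minus strand): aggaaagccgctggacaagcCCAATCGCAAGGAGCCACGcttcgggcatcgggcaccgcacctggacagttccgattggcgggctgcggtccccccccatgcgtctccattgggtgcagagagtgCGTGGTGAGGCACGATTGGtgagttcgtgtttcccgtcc
Calr (chr8:84847055-84847113, minus strand): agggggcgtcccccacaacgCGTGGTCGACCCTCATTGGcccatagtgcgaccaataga
Pdia6 (chr12:17266471-17266529, plus strand): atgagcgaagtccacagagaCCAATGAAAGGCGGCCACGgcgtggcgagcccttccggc
Dnajc3 (chr14:118937807-118937865, plus strand): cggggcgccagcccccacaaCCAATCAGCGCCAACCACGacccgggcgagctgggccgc

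Some cytosolic heat shock chaperones rose. Of 19 tested, 8 rose and 1 fell, with a median of 0.11. The inducible HSP90 gene Hsp90aa1 rose by 0.50, the constitutive HSP70 gene Hspa8, at 796 against 606 FPKM, by 0.41, and the small heat shock protein gene Hspb1 by 0.60. These 3 calls were fragile, Hsp90aa1 without any treated 24 h library (adjusted p up to 0.11) and Hspa8 and Hspb1 without any library except treated 10 h replicate 3 (up to 0.098 and 0.13). With 1 library left out, 1 to 9 members rose, 9 without treated 10 h replicate 3 and 1 without any treated 24 h library. Hspb8, another small heat shock protein, was the member that fell, at 32.2, 30.0 and 29.2 FPKM in treated 24 h cells, against 53.8, 48.0 and 53.8 FPKM in treated 10 h cells (-0.73, adjusted p = 0.0022).

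Part of the enzymes that make amino acids rose. Of 16 tested enzymes of serine, one-carbon and proline synthesis, 8 rose and 1 fell, with a median of 0.31. Phgdh, the first enzyme of serine synthesis (chr3:98313170-98339990), had 41.0, 36.5 and 39.3 FPKM in treated 24 h cells, against 18.4, 17.9 and 21.8 FPKM in treated 10 h cells, a change of 0.99 (SE 0.098, adjusted p = 0.0022). It was still below the 44.1 to 51.6 FPKM of untreated 24 h cells. Psat1, the next enzyme, averaged 79.7 ± 1.44 FPKM at 24 h and 45.0 ± 2.59 FPKM at 10 h, a change of 0.83, and Psph, the last, rose by 0.66. Asns, asparagine synthetase (chr6:7675169-7693254), had 243, 237 and 239 FPKM at 24 h against 167, 148 and 161 FPKM at 10 h, a change of 0.61 (SE 0.070, adjusted p = 0.0028). It was level with the 239 to 247 FPKM of untreated 24 h cells. Aldh18a1, which starts proline synthesis, rose by 0.93 and the mitochondrial serine enzyme Shmt2 by 0.49. When a library was left out, 5 to 12 rose, 12 without treated 10 h replicate 3 and 5 without treated 24 h replicate 1 or 2. The fragile calls here were those of Psph (lost without treated 24 h replicate 1 or 2, adjusted p up to 0.054) and Shmt2 (without any treated 24 h library, up to 0.070).

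Aminoacyl-tRNA synthetases, which charge each tRNA with its amino acid, rose in most cases. Of 20 tested, 16 rose and none fell, with a median of 0.45, and 10 to 18 rose with any 1 library left out. The changes of these 16 ran from 0.26 for Rars, a fragile call lost without any library except treated 10 h replicate 3 (adjusted p up to 0.12), to 0.72 for Lars. Gars, which loads glycine, averaged 118 ± 2.84 FPKM at 24 h and 82.6 ± 7.48 FPKM at 10 h. The arginine and lysine transporter Slc7a3 had 28.3, 28.2 and 29.9 FPKM in treated 24 h cells, against 17.3, 15.3 and 14.9 FPKM in treated 10 h cells, a change of 0.84 (SE 0.060, adjusted p = 0.0011). It had not regained the 37.3 to 37.9 FPKM of untreated 24 h cells, and of the 14 tested genes of its transporter list 3 rose and 2 fell (1 to 6 rises with 1 library left out). The list of ATF4 and integrated stress response genes gave 1 call of 16 tested, Chac1 at 0.36, where 19.1% of all tested genes were called. The Chac1 call was lost without any library except treated 10 h replicate 3 (adjusted p up to 0.11). Atf4, which encodes the main activator of amino acid genes under stress, averaged 71.9 and 85.5 FPKM (adjusted p = 0.13). Ddit3 averaged 4.93 and 6.61 FPKM (adjusted p = 0.083), and Trib3 10.0 and 11.4 FPKM (adjusted p = 0.18).

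The core of the amino acid response element, TGATGNAA, which is bound by ATF4 with C/EBP proteins, was searched in the same windows on both strands. It occurred in 3 of 12 listed promoters of the 16 synthetase genes that rose and in 2 of 8 listed promoters of the 8 synthesis genes that rose, against 3.53% of all listed promoters and 1.89% of those of tested genes. It was also in 1 of 15 promoters of the lysosomal genes that fell, 0 of 8 of the fallen NRF2 genes and 0 of 8 of the ER genes that rose. Synthetase and synthesis genes that were not called were not searched as a group. The 5 stretches of the synthetase and synthesis genes are shown because they belong to the genes whose rise is described above. The call of Pycr1 (0.29) was fragile, lost without any library except treated 10 h replicate 3 (adjusted p up to 0.17). Capitals mark the match on either strand.
Asns (chr6:7693210-7693252, minus strand): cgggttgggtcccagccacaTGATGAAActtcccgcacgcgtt
Pycr1 (chr11:120643824-120643871, minus strand): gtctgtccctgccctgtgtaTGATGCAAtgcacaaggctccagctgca
Aars (chr8:111033710-111033757, plus strand): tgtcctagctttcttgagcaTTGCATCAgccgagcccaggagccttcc
Gars (chr6:55037951-55037998, plus strand): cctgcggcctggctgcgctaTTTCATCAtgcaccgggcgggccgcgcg
Tars (chr15:11399659-11399693, minus strand): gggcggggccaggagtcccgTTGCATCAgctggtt

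Many lysosomal genes fell. Lysosomes break down macromolecules in an acid interior, and TFEB and its relatives raise their genes through a short E-box. Of 37 tested lysosome and TFEB network genes, 18 fell, 17 were not called and 2 rose, with a median of -0.34. Hexa, the alpha subunit of beta-hexosaminidase (chr9:59539540-59565109), had 24.4, 23.1 and 22.2 FPKM in treated 24 h cells, against 48.6, 43.8 and 49.9 FPKM in treated 10 h cells. Its change was -0.98 (SE 0.076, adjusted p = 0.0014), and it was near the level of untreated 24 h cells, 23.6 to 26.1 FPKM, with 2 of 3 treated 24 h libraries below that range. Gpnmb, a glycoprotein of melanosomes and lysosomes, had 0.39, 0.38 and 0.17 FPKM at 24 h against 3.13, 3.07 and 3.04 FPKM at 10 h, a change of -1.62 (SE 0.089, adjusted p = 0.00098). The lysosomal mannosidase Man2b1 averaged 10.48 and 19.98 FPKM (-0.85), the protease cathepsin D (Ctsd) 148 and 217 FPKM (-0.53), and the membrane glycoprotein Lamp1 202 and 284 FPKM (-0.47). Subunits of the proton pump (Atp6v0d1, Atp6ap1, Atp6v1h), the calcium channel Mcoln1 and the nutrient-sensing GTPase Rragc fell with them. The 2 that rose were the factors Mitf (0.81) and Tfeb (0.42), which stand at the head of the network. Across the fits with 1 library fewer, 10 to 22 fell, 22 without treated 10 h replicate 3 and 10 without treated 24 h replicate 2. The autophagy list was mixed, with 6 of 25 tested members higher and 5 lower, Sqstm1 lowest at -1.01. The autophagy counts ran from 2 to 7 higher and 2 to 6 lower with 1 library left out. Calls that proved fragile were those of Ctsd and Mcoln1 (lost without treated 24 h replicate 2, adjusted p 0.051 and 0.052) and Tfeb (without any library except treated 10 h replicate 3, up to 0.13).

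The E-box core of the TFEB element, TCACGTG, was found on either strand in 4 of the 15 listed promoters of the 18 lysosomal genes that fell, against 3.15% of all listed promoters and 5.35% of those of tested genes. It was also in 1 of 8 promoters of the fallen NRF2 genes, and in 2 of 12 of the synthetase genes, 1 of 8 of the ER genes and 0 of 8 of the synthesis genes that rose. Lysosomal genes that were not called were not searched as a group. The 4 stretches are shown because several carry the core more than once. Capitals mark each match, and TCACGTGA matches on both strands at overlapping bases.
Lamp1 (chr8:13159079-13159160, plus strand): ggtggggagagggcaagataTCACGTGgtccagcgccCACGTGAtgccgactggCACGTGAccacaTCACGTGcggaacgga
Mcoln1 (chr8:3500427-3500500, plus strand): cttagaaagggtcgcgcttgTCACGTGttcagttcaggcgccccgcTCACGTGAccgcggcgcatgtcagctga
Rragc (chr4:123917301-123917347, plus strand): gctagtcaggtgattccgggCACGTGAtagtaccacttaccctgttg
Ctsd (chr7:142387899-142388077, minus strand): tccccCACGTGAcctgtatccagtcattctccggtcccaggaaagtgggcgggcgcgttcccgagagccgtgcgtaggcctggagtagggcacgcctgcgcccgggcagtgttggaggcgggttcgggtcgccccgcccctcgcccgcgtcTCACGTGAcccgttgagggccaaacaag

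Most core pluripotency genes rose. Of 14 tested, 11 rose and none fell, with a median of 0.47. Nanog, a homeobox factor that holds cells in the undifferentiated state (chr6:122707489-122714633), had 355, 362 and 374 FPKM in treated 24 h cells, against 243, 232 and 227 FPKM in treated 10 h cells. The change was 0.65 (SE 0.064, adjusted p = 0.0020), and the treated 24 h range met that of untreated 24 h cells, 360 to 392 FPKM. Sox2 had 119, 119 and 124 FPKM at 24 h against 91.1, 90.6 and 92.5 FPKM at 10 h, a change of 0.41. Pou5f1 had 610, 594 and 612 FPKM against 426, 402 and 517 FPKM, a change of 0.46 whose call (adjusted p = 0.039) was lost without any library except treated 10 h replicate 3, where adjusted p was 0.00022. Prdm14, a repressor of lineage genes and of DNA methylation (0.72), Dnmt3l, the partner of the methyltransferases (0.64), Foxd3 (0.57), the Nodal co-receptor Tdgf1 (0.56), Trim28 (0.51) and Dppa2 (0.48) rose as well. With 1 library left out, 8 to 13 rose, 13 without treated 10 h replicate 3. Besides Pou5f1, the call of Foxd3 was fragile (lost without treated 24 h replicate 1 or 3, adjusted p up to 0.052).

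The naive list was less uniform. Of 19 tested members 8 rose and 2 fell, with 3 to 13 rises when 1 library was left out, 13 without treated 10 h replicate 3 and 3 without treated 24 h replicate 2 or 3. Klf4, a LIF-responsive factor, had 44.3, 44.3 and 44.2 FPKM in treated 24 h cells, against 33.0, 30.2 and 27.1 FPKM in treated 10 h cells, a change of 0.56 (SE 0.068, adjusted p = 0.0032). Tbx3 rose by 0.42 and Esrrb by 0.27. Klf2 averaged 104 and 83.1 FPKM and was not called (adjusted p = 0.11). Gbx2 (-0.41) and Nr0b1 (-0.29) fell. Of 9 tested formative and primed genes, 4 rose, among them the de novo methyltransferase Dnmt3b at 36.0 against 25.6 FPKM (0.50), and 0 to 7 rose with 1 library left out, 7 without treated 10 h replicate 3 and 0 without treated 24 h replicate 2. Fragile calls were those of Dnmt3b (lost without treated 24 h replicate 2, adjusted p 0.051), Tbx3 (without treated 24 h replicate 2 or 3, up to 0.055), Gbx2 (without treated 10 h replicate 2 or any treated 24 h library, up to 0.12), Nr0b1 (without treated 10 h replicate 1 or any treated 24 h library, up to 0.16) and Esrrb (without any library except treated 10 h replicate 3, up to 0.13).

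Of 5 tested primitive streak genes, 3 fell, with 2 without treated 10 h replicate 1 or 2 and 1 without any treated 24 h library. T (brachyury), a target of Wnt and Nodal in the streak, had 0.33, 0.59 and 0.39 FPKM in treated 24 h cells, against 2.12, 2.55 and 2.47 FPKM in treated 10 h cells, a change of -1.22 (SE 0.11, adjusted p = 0.0016). Of 6 tested primitive endoderm genes, 4 rose, and these were Dab2, Col4a1, Sparc and Lamb1, of which the last 3 are also in the matrix list (2 to 5 rises with 1 library left out). Dab2, an endocytic adaptor, had 1.62, 1.41 and 1.40 FPKM at 24 h against 0.66, 0.52 and 0.33 FPKM at 10 h, a change of 0.74. The defining factors of primitive endoderm were too low to be tested. Gata4 had 0.31 to 0.48 FPKM at 24 h and 0.69 to 0.92 FPKM at 10 h, Gata6 had 0.13 to 0.27 FPKM at 24 h and 0.081 to 0.15 FPKM at 10 h, and Sox17 was at most 0.16 FPKM in all 6 libraries. Of 8 tested trophectoderm genes Krt18, a keratin, rose by 0.88 and Eomes fell by 0.33, and of 3 tested neuroectoderm genes Nes fell by 0.33. The fragile calls here were those of Sparc (lost without treated 24 h replicate 1 or 2, adjusted p up to 0.052), Lamb1 (without treated 10 h replicate 1 or any treated 24 h library, up to 0.11), and Eomes and Nes (without any library except treated 10 h replicate 3, up to 0.16 and 0.11).

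Nodal is a TGF-beta family ligand that embryonic stem cells secrete. In the Nodal list, 4 of 13 tested members rose and 2 fell, and those that fell were the inhibitors that Nodal signalling itself induces. Lefty1 (chr1:180935022-180938400) had 5.01, 5.98 and 5.13 FPKM in treated 24 h cells, against 13.1, 13.8 and 17.8 FPKM in treated 10 h cells. The change was -1.29 (SE 0.14, adjusted p = 0.0025), and the treated 24 h values were far below the 11.4 to 14.5 FPKM of untreated 24 h cells. Lefty2 had 11.5, 9.78 and 11.5 FPKM at 24 h against 20.4, 20.1 and 20.7 FPKM at 10 h, a change of -0.83. The ligand Nodal rose at the same time, to 61.5 ± 3.12 FPKM at 24 h against 41.5 ± 4.28 FPKM at 10 h (0.58), a call lost without treated 24 h replicate 1 (adjusted p = 0.051). So did its processing protease Pcsk6 (0.61), its co-receptor Tdgf1 (0.56) and its effector Smad3 (0.51).

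Of 14 tested Wnt targets and feedback genes, 6 fell and 3 rose. Sp5, a direct target of beta-catenin (chr2:70474923-70477729), had 2.11, 1.84 and 1.63 FPKM in treated 24 h cells, against 7.67, 7.12 and 9.05 FPKM in treated 10 h cells. The change was -1.63 (SE 0.12, adjusted p = 0.0011), and the treated 24 h values overlapped the 1.91 to 2.42 FPKM of untreated 24 h cells. Axin2, the feedback inhibitor that scaffolds beta-catenin destruction, averaged 3.88 ± 0.29 FPKM at 24 h and 7.47 ± 0.77 FPKM at 10 h, a change of -0.78. Tcf7l1, the repressive partner of beta-catenin, rose by 0.71 and Notum, a secreted Wnt inhibitor, by 0.89. Falls numbered 4 to 6 with any 1 library left out. Among other pathways, the BMP target Id1 fell by 0.91 in a list of 12 tested with 2 falls and 1 rise (2 to 5 falls with 1 library left out). Fgf4 rose by 0.38 and 2 of 6 tested FGF genes fell. Of 14 YAP and TEAD targets 3 fell, Ccn2 (-0.51), Ccn1 (-0.50) and F3 (-0.44), and 0 fell without treated 24 h replicate 2 or 3, where their adjusted p reached 0.068, 0.0503 and 0.069. The call of Fgf4 was fragile too (lost without any treated 24 h library, up to 0.053). Of 12 LIF and Stat3 genes Klf4 rose (1 to 4 rises with 1 library left out) and Socs3, the feedback inhibitor, averaged 29.4 and 34.8 FPKM (adjusted p = 0.17).

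The p53 response was followed in 3 lists, and calls in each depended on treated 10 h replicate 3, as did calls over all tested genes. Of the 12587 tested genes, 1273 (10.1%) rose and 1129 (8.97%) fell in the main fit, against 2707 and 2354 without that library. None of 10 tested feedback genes was called, but 3 fell and 1 rose without that library. Mdm2, the ligase that degrades p53, averaged 50.1 ± 1.21 FPKM at 24 h and 63.1 ± 10.9 FPKM at 10 h (adjusted p = 0.10, and 0.00053 without treated 10 h replicate 3), with 26.1 to 31.6 FPKM in untreated 24 h cells. Trp53inp1, a death-promoting target, averaged 59.2 and 59.9 FPKM against 24.3 to 32.8 FPKM in untreated 24 h cells. Of 25 tested arrest and metabolism targets, 3 fell and 1 rose, with 8 falls and 3 rises without treated 10 h replicate 3 and 2 or 3 falls and no rise without any other library. The cyclin-dependent kinase inhibitor Cdkn1a averaged 36.1 ± 1.18 FPKM at 24 h and 46.9 ± 4.23 FPKM at 10 h, a change of -0.35 (adjusted p = 0.036). The checkpoint protein gene Sfn had 26.2, 23.7 and 26.3 FPKM at 24 h against 46.8, 47.3 and 57.0 FPKM at 10 h, a change of -0.94 (adjusted p = 0.0032), and Plk3 fell by 0.63. Of 13 tested death effectors, Bid and Perp fell, by 0.38 and 0.30, with 4 falls and 2 rises without treated 10 h replicate 3 and no call without treated 24 h replicate 1 or 2. Perp still stood at 39.6 to 44.1 FPKM at 24 h against 14.9 to 17.5 FPKM in untreated 24 h cells. Bbc3 averaged 13.4 and 10.9 FPKM and was not called. The anti-apoptotic Bcl2l1 fell by 0.54, at 13.95, 13.86 and 13.61 FPKM in treated 24 h cells, against 21.96, 20.30 and 20.33 FPKM in treated 10 h cells. Calls that proved fragile were those of Cdkn1a and Perp (lost without treated 10 h replicate 1 or any treated 24 h library, adjusted p up to 0.14 and 0.095) and Bid (without treated 24 h replicate 1 or 2, up to 0.056).

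A minority of growth and division genes rose. Of 36 tested G1/S and replication genes 9 rose, among them the helicase subunits Mcm2, Mcm4 and Mcm6 and the polymerase genes Pola1 and Pole, and of 34 tested G2/M genes 9 rose, led by the cyclin Ccnb2 (0.61) and the securin gene Pttg1 (0.52). None fell in either list, and the rest were not called. Over all tested genes 10.1% rose and 8.97% fell. When a library was left out, the rises ran from 0 to 15 for G1/S, with 0 without any 1 of the treated 24 h libraries, and from 2 to 19 for G2/M. Over all tested genes they ran from 433 to 2707. The D cyclins were called higher. Ccnd1 averaged 28.01 ± 0.65 FPKM at 24 h and 19.5 ± 2.52 FPKM at 10 h (0.52), Ccnd3 26.998 and 17.8 FPKM (0.60), and Ccnd2 1.46 and 0.40 FPKM (0.82). Mycn, the Myc family member of embryonic cells, had 26.5, 27.5 and 26.4 FPKM in treated 24 h cells, against 19.02, 18.07 and 17.9 FPKM in treated 10 h cells, a change of 0.54 (adjusted p = 0.0022), while Myc averaged 11.5 and 14.3 FPKM (adjusted p = 0.085). Among 24 repair genes 7 rose and 3 fell, with 2 to 9 rises and 0 to 5 falls when 1 library was left out. Parp1, the sensor of strand breaks, rose by 0.60, Lig3 by 0.76 and the end-joining genes Xrcc5 and Prkdc by 0.52 and 0.57, while the gap-filling polymerase Polb fell by 0.43. Of 22 recombination and checkpoint genes, 2 rose, with 0 to 2 when 1 library was left out, beside the 10.1% of all tested genes that rose. Fragile calls were those of Ccnd1 (lost without treated 24 h replicate 2, adjusted p 0.053), Prkdc (without treated 24 h replicate 2 or 3, up to 0.056), Mcm6, Pola1, Pole and Lig3 (without any treated 24 h library, up to 0.077, 0.13, 0.099 and 0.085), Mcm4 and Polb (these or treated 10 h replicate 2, up to 0.11 and 0.13) and Mcm2 (without any library except treated 10 h replicate 3, up to 0.14).

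Some genes of each metabolic list rose. Of 15 tested fatty acid genes 8 rose, with 5 to 8 when 1 library was left out. Fads2, a desaturase, had 19.4, 20.3 and 20.2 FPKM in treated 24 h cells, against 11.2, 9.72 and 9.36 FPKM in treated 10 h cells, a change of 0.94 (adjusted p = 0.0011), and the synthesis enzymes Acaca (0.71), Acly (0.62) and Fasn (0.58) rose with it. Of 24 cholesterol genes 6 rose, Sqle most at 0.51, but 1 to 12 rose with 1 library left out. Of 27 glycolysis and hypoxia genes 10 rose and none fell. Ldha, lactate dehydrogenase, averaged 232 ± 4.96 FPKM at 24 h and 156 ± 10.8 FPKM at 10 h (0.59), still far below the 383 to 389 FPKM of untreated 24 h cells. The phosphofructokinase gene Pfkp rose by 0.89, Aldoa averaged 415 and 340 FPKM (adjusted p = 0.081), and 2 to 18 genes of the list rose with 1 library left out, 18 without treated 10 h replicate 3.

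The counts of several housekeeping lists moved with treated 10 h replicate 3, as did the count over all 12587 tested genes, with 1273 rises in the main fit and 2707 without that library. Of 35 tested proteasome genes 7 rose, with 31 rising without that library and 1 without any treated 24 h library. Of 39 nuclear respiratory chain genes 3 rose, with 18 without that library and 0 without any other. Ribosome biogenesis gave 7 rises of 40 (0 to 19 with 1 library left out), and of 79 cytosolic ribosomal protein genes 1 passed, with a list median of -0.17 that was -0.02 without treated 10 h replicate 3. That 1 gene, Rpl17, was uneven within groups, at 77.8, 146 and 68.3 FPKM against 204, 268 and 225 FPKM, and shares sequence with processed copies, so it is uncertain, and its call was lost without treated 10 h replicate 2 or treated 24 h replicate 1 or 3 (adjusted p up to 0.090). None of 13 mitochondrial mRNAs was called. Of 19 mitochondrial tRNAs 2 rose and 6 fell, short RNAs that a poly(A) library covers unevenly. Among 31 methylation enzymes, 9 rose (2 to 13 with 1 library left out), with the histone demethylase Kdm5b at 0.81 (fragile, lost without any treated 24 h library, adjusted p up to 0.057), and Suv39h1, a histone H3K9 methyltransferase, fell by 0.68. Of 13 tubulins 7 rose, but 2 without any library other than treated 10 h replicate 3, and of 31 splicing genes 6 rose and 3 fell, with 3 to 12 rises and 0 to 7 falls when 1 library was left out.

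Most matrix genes tested rose. Of 20 tested matrix and integrin genes 12 rose and none fell, with a median of 0.46 and 7 to 15 rises with 1 library left out. Nid1, which links laminin to collagen IV, had 35.0, 35.7 and 35.5 FPKM in treated 24 h cells, against 19.1, 19.6 and 13.7 FPKM in treated 10 h cells, a change of 1.01 (SE 0.12, adjusted p = 0.0031). Col4a1, a chain of collagen IV, had 8.03, 8.54 and 8.00 FPKM at 24 h against 4.91, 4.38 and 3.59 FPKM at 10 h, a change of 0.82. All of the treated 24 h values of Col4a1 were above the 5.12 to 5.93 FPKM of untreated 24 h cells. Fibronectin Fn1 (0.76), the laminin chain Lamc1 (0.75) and Sparc (0.47) rose too, of which Lamc1 was fragile (lost without any treated 24 h library, adjusted p up to 0.089).

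Genes of the 2-cell-like state, a rare and transient condition in stem cell cultures marked by the Zscan4 cluster, rose in most cases. Of 13 tested, 9 rose and none fell, with a median of 0.59 and 5 to 9 rises with 1 library left out. Zscan4d had 35.7, 30.3 and 29.7 FPKM in treated 24 h cells, against 17.0, 11.1 and 10.5 FPKM in treated 10 h cells, a change of 1.29 (SE 0.16, adjusted p = 0.0037). Zscan4c (1.01) and Zscan4f (1.11) rose likewise, and untreated 24 h cells had 19.3 to 21.3 FPKM of Zscan4d. The Zscan4 and Usp17l copies are near-identical, so the counting can split reads between them and single members are uncertain. Of 19 imprinted genes 5 rose and 1 fell (3 to 8 rises and 1 to 5 falls with 1 library left out). Besides Peg10, the growth factor receptor adaptor Grb10 averaged 9.94 and 4.81 FPKM (0.94) and the noncoding RNA H19 3.21 and 1.65 FPKM (0.73, lost without any treated 24 h library, adjusted p up to 0.14). Igf2 averaged 1.97 and 1.55 FPKM and was not called (adjusted p = 0.12).

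**Figure D3:**
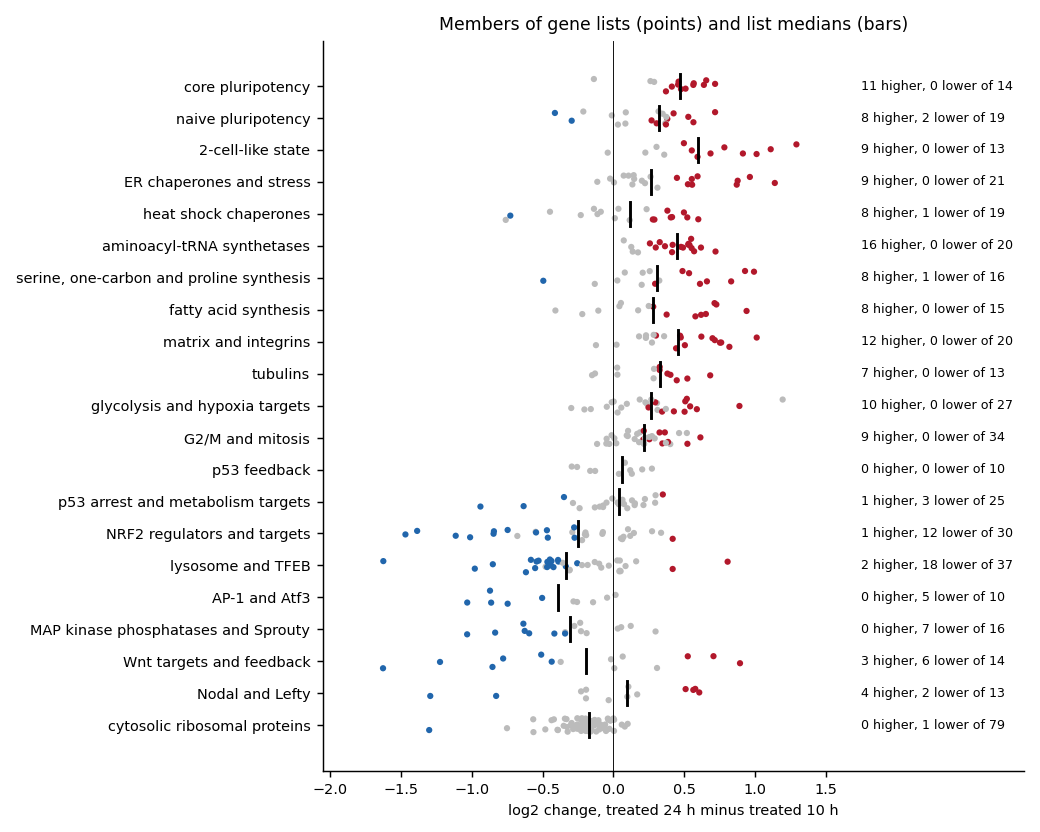
Change between treated 24 h and treated 10 h cells (difference of log2(FPKM + 1)) of the tested members of 21 gene lists, with 1 point per gene, coloured where called higher or lower and grey where not called, and a bar at each list's median. Aminoacyl-tRNA synthetases (16 of 20 higher), core pluripotency (11 of 14) and matrix genes (12 of 20) lie mostly above 0, and lysosome (18 of 37 lower), NRF2 (12 of 30) and MAP kinase phosphatase genes (7 of 16) mostly below.

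The whole time course places the interval. Mean Hmox1 was 89.0 FPKM in untreated 0 h cells, 89.9 at 0.5 h, 93.6 at 2 h, 176 at 4 h, 224 at 6 h, 230 at 8 h, 175 at 10 h and 79.4 FPKM at 24 h after treatment, with 72.2 FPKM in untreated 24 h cells. It was past its highest mean by 10 h. Srxn1 came later, with its highest mean at 10 h: 13.9 FPKM untreated at 0 h, then 13.7, 12.8, 11.0, 16.7, 32.7, 39.1 and 13.3 FPKM at the same times. Nanog was lowest at 6 h, 89.8 FPKM, and had regained 234 FPKM at 10 h and 364 FPKM at 24 h. Hspa5 was also lowest at 6 h, 71.0 FPKM, but had moved only to 82.1 FPKM by 10 h and reached 158 FPKM at 24 h. Peg10 stayed between 6.36 and 14.8 FPKM up to 10 h and was 41.0 FPKM at 24 h. The 0 h and 10 h means share libraries with other comparisons here and are given as levels with no test.

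**Figure D4:**
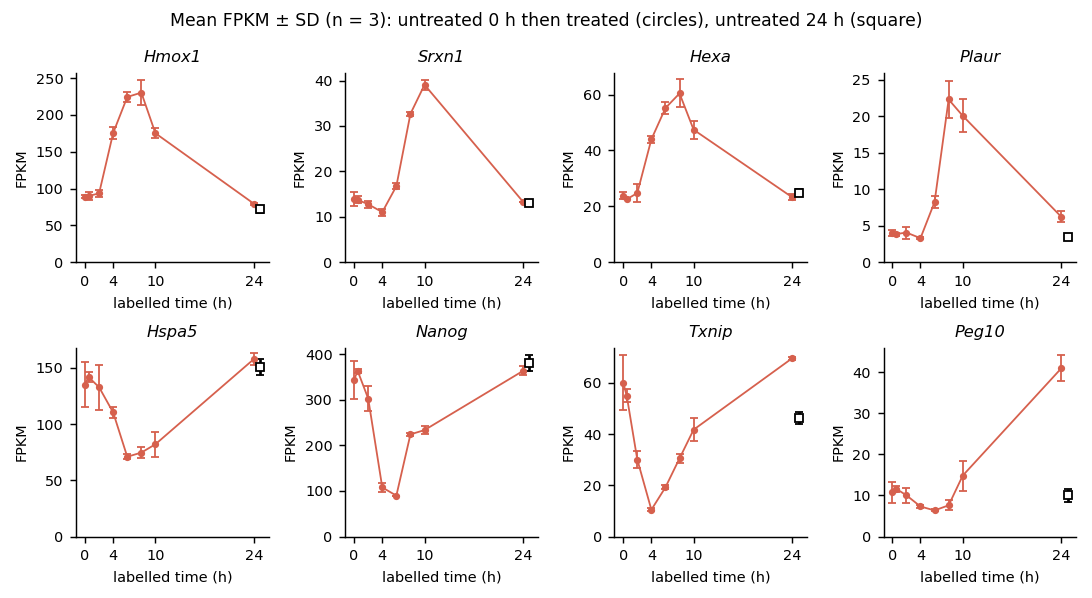
Mean FPKM with SD (n = 3 libraries) of 8 genes against labelled time in hours, from untreated 0 h through treated 0.5 h to 24 h, with untreated 24 h as a square beside the last time. Hmox1, Srxn1, Hexa and Plaur are lower at treated 24 h than at 10 h, Hspa5, Nanog and Txnip are higher after a low at earlier times, and Peg10 is highest at treated 24 h.

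Fitted changes against untreated cells show from which side each group of genes moved. The change of treated 10 h cells from untreated 0 h cells had a list median of 0.34 for NRF2 genes, 0.42 for lysosomal genes, 0.43 for AP-1 genes, -0.32 for ER chaperones, -0.49 for synthetases, -0.63 for serine and proline synthesis and -0.66 for core pluripotency. The change of treated 24 h cells from untreated 24 h cells had medians of 0.03, -0.01, 0.04, 0.03, -0.13, -0.32 and -0.15 for the same lists in that order. Matrix genes and 2-cell-like genes differed in this: their medians were 0.43 and 0.38 at 24 h, against -0.27 and -0.04 at 10 h. These comparisons share the treated libraries with the interval described here, so their signs are not independent of it.

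Because the treated cells were also longer in culture, the change between the treated times was set against that between untreated 24 h and untreated 0 h cells in a limma fit of 12 libraries. That untreated interval is longer than the treated one, starts from another time and shows 2 genes called (764 at an unadjusted p below 0.05). The difference of the 2 changes was called in 388 genes (3.08% of those tested), above 0 in 203 (1.61%) and below 0 in 185 (1.47%). With FPKM as deposited, without scaling, the split was 139 above and 213 below. Of the 388 genes, 374 were also called between the treated times, all in the same direction, which is 96.4% of the smaller set and 15.6% of the larger. The difference contains the treated change and its libraries, so this overlap and the shared direction are partly built in. The median SE of this difference was 0.197, and 153 to 1899 genes were called with 1 library left out, 153 without treated 24 h replicate 1 and 1899 without untreated 0 h replicate 3.

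By list, the difference was called for 10 of 37 lysosomal genes and 6 of 30 NRF2 genes, all below 0, and for 5 of 21 ER chaperones, 4 of 14 core pluripotency and 4 of 20 matrix genes, all above 0. It was called for 1 of 20 synthetases and for none of the 27 glycolysis or 13 tested genes of the 2-cell-like list. Over all tested genes the share was 3.08%. The median difference was 0.35 for synthetases, -0.08 for glycolysis and 0.37 for 2-cell-like genes, beside treated medians of 0.45, 0.27 and 0.59. For Srxn1 the difference was -1.33 (SE 0.092, adjusted p = 7.0e-05) beside a treated change of -1.47, for Calcoco2 it was 1.66 (adjusted p = 0.0024) beside 1.59, and for Hsp90b1 1.04 (adjusted p = 0.0065) beside 1.14. The Lefty genes differed most from their untreated counterparts. Lefty1 had an untreated change of 1.29 where the treated change was -1.29, so the difference was -2.58 (SE 0.29, adjusted p = 0.0024), and for Lefty2 it was -2.11 (adjusted p = 0.00021). Txnip had a difference of 1.14 (adjusted p = 0.0018), with an untreated change of -0.40. Ldha, in contrast, rose in treated cells by 0.59 beside an untreated change of 0.44, and the difference of 0.14 was not called (adjusted p = 0.78).

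**Figure D5:**
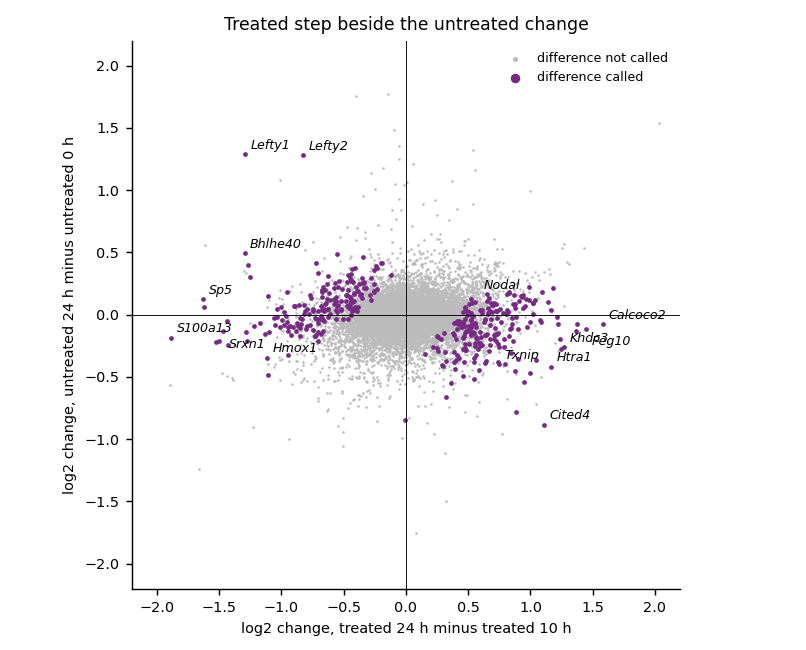
Change between treated 24 h and treated 10 h cells (horizontal axis) against the change between untreated 24 h and untreated 0 h cells (vertical axis), both as differences of log2(FPKM + 1), for all tested genes, with 2 genes outside the plotted limits. Purple points are the 388 genes whose difference between the 2 changes was called, and Lefty1 and Lefty2 lie at the upper left, with opposite changes in treated and untreated cells.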

How the data were processed

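Libraries of poly(A) RNA from 6 samples of treated cells, 3 at 24 h and 3 at 10 h, were compared, with 3 untreated 24 h and 3 untreated 0 h libraries beside them. The submitters' processing notes name cutadapt, HISAT2 and StringTie and the genome build mm10, and no versions. The strand setting is not given in the sources used here. Per the file headers the authors deposited FPKM values per gene and library in 7 tables of 38352 genes. Reads are not counted in FPKM, so absolute depth is unknown. The tables were joined by gene identifier, since 153 genes share a symbol.

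FPKM was scaled by median of ratios within the libraries compared and taken as log2(FPKM + 1), with a pseudocount of 1. Genes that reached 1 FPKM in 3 or more of the 6 treated libraries were kept. limma 3.58.1 in R 4.3.3 was fitted with a mean-variance trend and 1 mean per group, and p-values were adjusted over all tested genes by the Benjamini-Hochberg method, with genes called below 0.05. A second fit of 12 libraries tested the difference of the treated and untreated changes. Both fits were tested on simulated data with independent noise for each gene. The simulation held no library-wide shift such as that of treated 10 h replicate 3, so it does not cover that case. The p-values measure the spread between replicate libraries. Values printed as FPKM are the deposited ones, unscaled.

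The libraries, gene lists and tests were chosen with earlier results of these data known. Named genes are the 15 largest rises and falls among called genes averaging at least 5 FPKM in the higher group with no overlap between groups, up to 5 called and 3 not called members of each list, a panel of known genes, and the 5 largest called differences in each direction from the untreated change, gene models and short RNAs left out. Only part of them is described. Named outside this rule after their values were seen were Aars, Atp6ap1, Atp6v1h, Bbc3, Calr, Ctsd, Ddit3, Dnajc3, Dppa2, Dusp5, Dusp6, Fasn, Gars, Gclc, Gsr, Igf2, Keap1, Lamp1, Manf, Mcm2, Mcoln1, Nr0b1, Polb, Pycr1, Rars, Rragc, Shmt2, Smad3, Sod2, Tcf7l1, Tfeb, Trib3, Trim28, Txnrd1 and Xbp1. Gene positions are from GENCODE M21 on GRCm38. Promoters are the first listed entry of each gene in RefSeq on GRCm38.p6, with 8855 of the tested genes matched by symbol. Alternatives were a pseudocount of 0.1, no filter, a filter of 5 FPKM, no scaling, no trend, all 27 libraries in 1 fit, a replicate block, library weights, a correction for GC content and length by splines, and each library left out. Fits without libraries that stand apart were added after the data were seen.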

Additional observations from a re-analysis of the deposited data

Results flagged for a closer look

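For 10 genes the change between treated 24 h and treated 10 h cells differed from the change between untreated 24 h and untreated 0 h cells by the largest amounts, and the difference itself was tested, as an interaction in the limma fit of 12 libraries. The untreated interval is longer than the treated one, and the untreated 24 h libraries hold hepatocyte transcripts, so the values describe these groups only. Above 0 were Cited4, a coactivator-binding protein (1.99, adjusted p = 0.044), Calcoco2 (1.66), Htra1 (1.58), Peg10 (1.56) and Khdc3 (1.53, adjusted p = 0.038). Below 0 were Lefty1 (-2.58), Lefty2 (-2.11), Bhlhe40 (-1.78), Sp5 (-1.74) and S100a13 (-1.69, adjusted p = 0.036).

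Cited4 had 9.98, 8.85 and 7.99 FPKM in treated 24 h cells, against 2.87, 3.31 and 4.94 FPKM in treated 10 h cells, and 4.63, 2.77 and 3.49 FPKM in untreated 24 h cells, against 4.77, 6.31 and 11.9 FPKM in untreated 0 h cells. Its high untreated 0 h value came from replicate 3, a library that stands apart. Bhlhe40 had 2.13, 2.10 and 1.85 FPKM in treated 24 h cells, against 7.03, 6.89 and 5.67 FPKM in treated 10 h cells, while untreated cells had 2.07, 2.30 and 2.21 FPKM at 24 h and 1.39, 1.41 and 0.95 FPKM at 0 h. Htra1 had 20.4, 19.5 and 20.1 FPKM in treated 24 h cells, above the 11.2 to 11.8 FPKM of untreated 24 h cells.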

How the results depend on the processing

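Of the 2402 called genes none changed sign under any alternative, but the count moved. With a filter of 5 FPKM, which leaves 7487 genes to test, it was 1548. Of the 1508 main calls tested again there, 1434 held. The count was 6233 with library weights and 4076 with a correction for GC content and length. It was 4685 with 4 libraries that stand apart left out of a fit of the series, and 91 with a minimum change of 1 on the log2 scale. With 1 library left out it ran from 785 to 5061. The difference from the untreated change, 388 genes, became 255 of 7487 tested with the 5 FPKM filter. It became 1162 with all 27 libraries, 5828 with library weights and 1270 with the GC and length correction. It was 1456 with that correction and a replicate block, 2178 without the 2 libraries with a strong GC trend, and 61 with a minimum change of 1. With 1 library left out it ran from 153 to 1899. The causes of these moves were not tested.

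With a replicate block alone the counts were 1718 and 509. Deviations of same-numbered treated libraries correlated at -0.10, 0.12 and 0.04, and 1 of 3 numbers correlated best with itself. So few values cannot show whether the replicate numbers pair the libraries. In replicate 3 the GC slope was 0.22 log2 per 10 points at treated 10 h and 0.38 at untreated 0 h. It was 0.019 at treated 24 h and 0.0074 at untreated 24 h. Of the named genes, the Trp53inp1 change reversed to -0.18 without treated 10 h replicate 3, with 0.17 at the other end of its range without replicate 2, the Cox4i1 change to 0.14 with library weights and 0.13 without treated 10 h replicate 3 (-0.095 without replicate 1), and the Cox6a1 change to 0.15 without treated 10 h replicate 3 (-0.17 without replicate 1). None of these genes was called in the main fit, but each was called in the fits where its change reversed. FPKM hides read numbers, so counting error at low levels could not be set.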

Other observations

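Histone and splicing genes gave a few further changes. Of 7 tested replication-dependent histone genes, read from polyadenylated RNA, 3 were called higher at 24 h, and 1 to 4 with 1 library left out. H1f2, a linker histone, had 8.08, 8.18 and 6.25 FPKM in treated 24 h cells, against 3.25, 2.82 and 3.05 FPKM in treated 10 h cells, a change of 1.08 (adjusted p = 0.0021). Among splicing genes the regulator Tra2b rose by 0.46, while Srsf5, a serine- and arginine-rich factor, fell by 0.44 at 101 ± 5.90 FPKM in treated 24 h cells and 139 ± 10.4 FPKM in treated 10 h cells. The Srsf5 call was fragile, since no splicing gene was called lower without treated 24 h replicate 1 or 2. Of 12 tested clock genes Bhlhe40 was called.

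Some genes were split within a group rather than between groups. Lcn2, a secreted iron-carrier binding protein, had 1.973, 2.197 and 0 FPKM in treated 24 h cells, against 2.73, 0 and 2.51 FPKM in treated 10 h cells. Gfap, the astrocyte filament gene, was near 2 FPKM in the same 4 libraries, at 2.16, 1.99 and 0.15 FPKM in treated 24 h cells, against 2.13, 0.26 and 2.16 FPKM in treated 10 h cells. Both were also present in all 3 untreated 24 h libraries, at 2.14 to 2.65 FPKM for Lcn2, and near 0 in untreated 0 h cells. Gapdh, often used as a reference gene, had 70.8, 52.5 and 102 FPKM in treated 24 h cells, against 23.1, 21.2 and 63.3 FPKM in treated 10 h cells, and was not called (adjusted p = 0.11).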
